A study of Mus musculus with 9 samples.

Results

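Abca1 and the genes of the liver X receptor (LXR) axis were followed in Hepa1-6, a mouse hepatoma cell line. The axis was taken as 9 protein-coding genes, matched by gene name in the deposited table, which holds 56748 genes in all, 21970 of them protein-coding. They are the efflux transporters Abca1 and Abcg1, the receptors Nr1h2, Nr1h3 and Rxra, and the LXR targets Mylip, Lpcat3, Smpdl3a and Srebf1. Each of 3 groups gave 3 RNA-Seq libraries, namely control cells, cells given 37 µg/mL lefamulin and cells given 37 µg/mL tiamulin, the last 2 for 2 days. The medium of all 3 groups held serum and, as further antibiotics, penicillin and streptomycin. The labels describe the controls as not manipulated, whereas the methods of the paper name a vehicle, so an effect of the diluent cannot be told apart from that of the drugs. Both drugs are pleuromutilins, antibiotics that share a tricyclic core and differ in the side chain. Their doses were matched by mass and not by molar amount. The samples are numbered, but the labels do not say that they came from separate cultures, so the p values measure the spread between samples, which may be technical.

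LXRα (Nr1h3) and LXRβ (Nr1h2) are nuclear receptors for oxysterols, the oxidized products of cholesterol. They bind DNA as heterodimers with a retinoid X receptor such as RXRα (Rxra), typically on direct repeats of the hexamer AGGTCA spaced by 4 bases, and they exchange corepressors for coactivators when a ligand is bound. Their targets carry cholesterol out of the cell (Abca1 and Abcg1), switch on lipid synthesis (Srebf1, which encodes SREBP1), reshape membrane phospholipids (Lpcat3) and mark lipoprotein receptors for breakdown (Mylip, also called IDOL). The question asked here was whether the fall of Abca1 went with the receptors and with other LXR targets.

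Total counts on genes lay between 15568887 and 18008105 per library. The library tiamulin 2 stood apart from tiamulin 1 and tiamulin 3. In a chi-square comparison of counts, its pairs gave 16.3 and 18.6 per degree of freedom, against 2.79 to 6.91 for other pairs within a group. Its deviation from the group mean rose with the GC content of the genes (Spearman's rho = 0.710 across 9584 genes, which are not independent replicates). For control 1 this rho was 0.523, and it was -0.512 for control 2, -0.560 for tiamulin 1 and -0.599 for tiamulin 3, and between -0.159 and 0.195 for the other 4 libraries. Members of high GC content are therefore given with and without tiamulin 2, and with offsets that take out the trend of each library with GC content and gene length. The hepatoma markers Alb, Afp, Hnf4a and Trf were abundant in all 9 libraries, whereas Ttr had at most 2 counts and Serpina1a none. Of the 6 such markers tested, Alb and Hnf4a were lower and Trf higher under lefamulin, and Afp, Alb, Apob and Fgb were lower under tiamulin and also lower with tiamulin than with lefamulin, as Abca1 was. Over all genes tested, 6.00% were lower and 7.09% higher under lefamulin, and 7.34% and 9.08% under tiamulin. Between the drugs, 2.05% of all genes were lower and 2.85% higher with tiamulin. Among the hepatoma markers Afp, the fetal counterpart of albumin, was -0.12 under lefamulin (adjusted p = 0.172) and -0.81 under tiamulin (adjusted p = 5.45e-07), and -0.68 between the drugs (adjusted p = 1.41e-05, edgeR's quasi-likelihood test). Their part in the Abca1 values was not tested. Of 9 macrophage markers, Adgre1, Clec4f and Marco had 0 counts in all 9 libraries. The summed level of the macrophage list was 38.5 to 41.3 CPM (read counts scaled to a common library size) in controls, 46.0 to 51.3 with lefamulin and 47.3 to 61.5 with tiamulin, mostly from Cd14 and Cd68. Csf1r, the receptor for macrophage growth factor, moved the other way, from 40 to 58 counts in controls to 12 to 26 in treated libraries, and was lower under both drugs (-1.33 and -1.32, adjusted p = 0.0119 and 0.00949, edgeR's quasi-likelihood test). Mpeg1, a perforin-like macrophage gene, was -0.36 under lefamulin (adjusted p = 0.262) and lower under tiamulin (-1.11, adjusted p = 0.00227). Csf1r and Mpeg1 thus had the direction of Abca1, and their part in the Abca1 values was not tested. In bulk RNA, fewer cells of a type and less RNA per cell cannot be told apart.

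The sequence before the Abca1 start is shown first, because LXR and RXR are known to act on a direct repeat close to it. It comes from a RefSeq window of 300 bases on GRCm38.p6, chr4:53159846-53160145, minus strand, of which the 250 bases before the start are printed. The capitals mark the best match to a direct repeat of AGGTCA with 4 bases between the hexamers, searched on both strands.
Abca1: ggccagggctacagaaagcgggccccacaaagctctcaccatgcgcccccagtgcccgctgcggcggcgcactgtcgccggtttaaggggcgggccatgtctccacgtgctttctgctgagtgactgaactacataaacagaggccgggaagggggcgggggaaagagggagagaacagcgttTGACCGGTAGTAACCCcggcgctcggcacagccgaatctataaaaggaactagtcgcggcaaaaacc
The match lies on the opposite strand, from 67 to 52 bases before the start, and differs from the consensus at 3 of the 12 hexamer positions. Counted from 1 at the 5′ end of the 16-base element, the consensus base first, the differences are A1G, C5T and A11C. A match with at most 3 differences is common, in 21.9% of 32851 RefSeq windows of this length. The window also holds CACGTG, the core of the E-box bound by USF proteins, found in 7.15% of windows, and GGGCGG, the core of an Sp1 box, found in 35.7%.

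Of the 9 genes, 7 had a RefSeq window, 11 windows in all, and Abcg1 and Smpdl3a had none. No window of these 7 genes held a match with 2 or fewer differences, a class found in 3.02% of all windows. The element of Abca1 was then set beside that of Srebf1 because both carry the same pair of hexamers, a comparison made after the values had been seen. Written 5′ to 3′ on the strand that carries the direct repeat, with the hexamers in capitals, the elements are as follows.
Abca1: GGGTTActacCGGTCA
Srebf1: GGGTTActggCGGTCA
Fasn: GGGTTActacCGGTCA
Srebf1 has 3 windows, and its element lies from 182 to 167 bases before the most downstream of these 3 starts, in a window at chr11:60210422-60210721, minus strand, and that of Fasn, the fatty acid synthase, from 225 to 210 bases before the gene start, in a window at chr11:120824498-120824797, minus strand. These 3 genes were the only ones among the 32851 windows with both of these hexamers 4 bases apart (0.00913%). A match describes letters and is not a measured binding site. The 3 genes that share it had different counts after treatment, as given with each gene.

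Abca1 (ENSMUSG00000015243, chr4:53030787-53159895, minus strand), which loads cellular cholesterol and phospholipid onto apolipoproteins, had the largest log2(fold change) of the 8 genes tested under each drug. Gene positions are given as deposited, on a build that is not GRCm38 for most genes, although the position of Abca1 is the same in GRCm38. The Abca1 counts were 1646, 1438 and 1651 in controls 1 to 3. They were 224, 164 and 179 in lefamulin 1 to 3. They were 101, 122 and 111 in tiamulin 1 to 3. All 6 treated libraries lay below all 3 controls, and all 3 tiamulin libraries lay below all 3 lefamulin libraries. The level was 90.3 ± 5.91 CPM in controls, 11.7 ± 2.31 with lefamulin and 6.77 ± 0.765 with tiamulin (mean ± SD, n = 3, normalized by TMM). The fitted level was 13.0% of control under lefamulin and 7.49% under tiamulin. The log2(fold change) was -2.95 (95% confidence interval -3.20 to -2.69, adjusted p = 3.55e-09) under lefamulin and -3.74 (-4.01 to -3.46, adjusted p = 6.44e-10) under tiamulin (edgeR's quasi-likelihood test, Benjamini-Hochberg adjustment over the 14510 genes tested).

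The fall of Abca1 was deeper with tiamulin than with lefamulin at the same mass dose and time. Tested directly, tiamulin against lefamulin gave a difference of -0.79 on the log2 scale (SE 0.14, 95% confidence interval -1.09 to -0.49, adjusted p = 0.00580, edgeR's quasi-likelihood test). Abca1 with tiamulin was 57.8% of its level with lefamulin. Abca1 was the only one of the 8 genes tested that differed between the drugs, where 2.05% of all genes tested were lower and 2.85% higher with tiamulin. With limma on log2(FPKM + 1), a scale that compresses low values, this difference was -0.36 with an adjusted p of 0.0676. Without tiamulin 2 it was -0.88 (adjusted p = 0.000208).

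**Figure D1:**
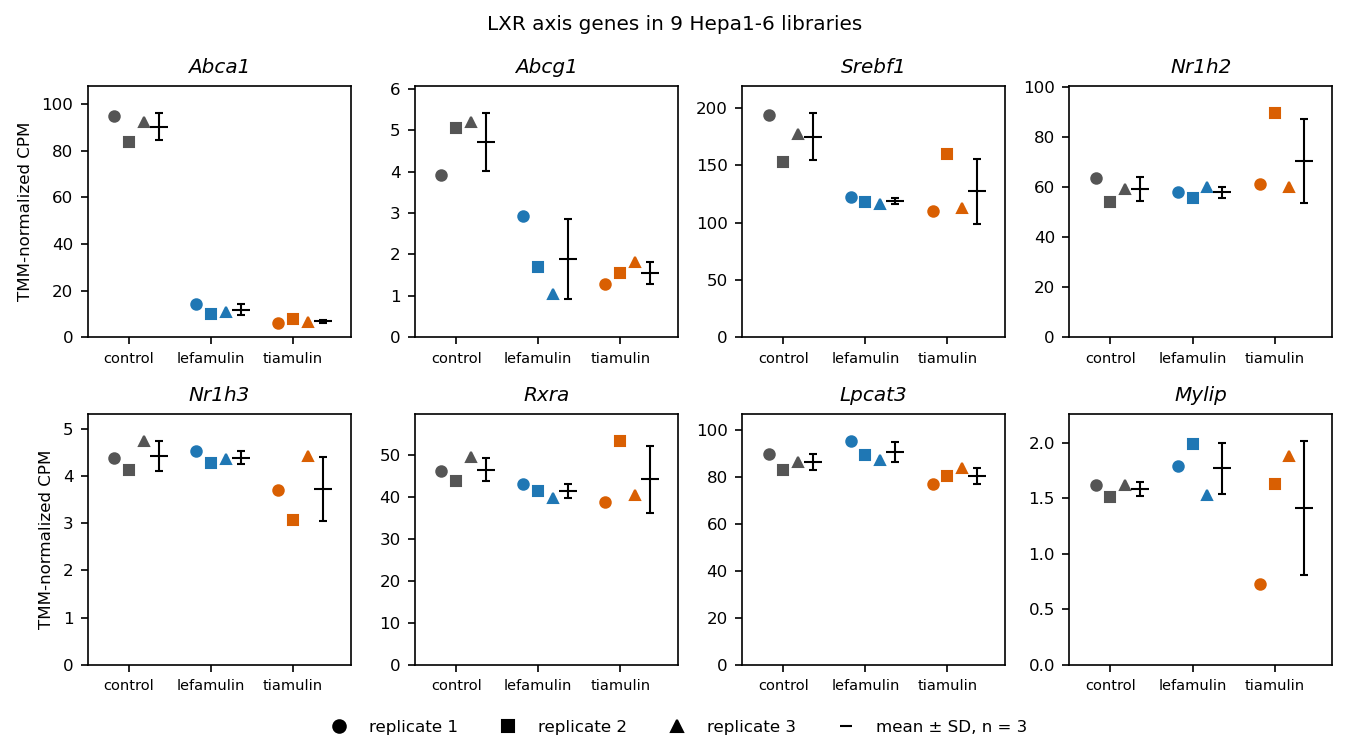
TMM-normalized CPM of the 8 members with counts, 1 panel per gene with its own axis from 0, for the 3 groups on the x axis. Symbols are libraries by replicate number and the bars give mean ± SD (n = 3). In the Abca1 and Abcg1 panels all treated libraries sit below all controls, in the Srebf1 panel the tiamulin 2 square lies among the controls, and in the Nr1h2 and Rxra panels the tiamulin 2 square is the highest of the 9.

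Abcg1 (ENSMUSG00000024030, chr17:31276649-31336962, plus strand), which passes cholesterol on to lipid-rich high-density lipoprotein, moved the same way as Abca1 at far lower counts. Its counts were 68, 87 and 93 in controls 1 to 3. They were 46, 28 and 17 in lefamulin 1 to 3. They were 21, 25 and 31 in tiamulin 1 to 3. All 6 treated libraries were below all controls, while the 2 drug groups overlapped. The level was 4.73 ± 0.697 CPM in controls, 1.89 ± 0.965 with lefamulin and 1.55 ± 0.274 with tiamulin (mean ± SD, n = 3). Abcg1 thus stood at 39.9% of control under lefamulin and at 33.0% under tiamulin in the fit. In edgeR's quasi-likelihood test Abcg1 changed on the log2 scale by -1.33 (SE 0.29, adjusted p = 0.00825) for lefamulin and -1.60 (SE 0.30, adjusted p = 0.00207) for tiamulin. Lefamulin 1 was the highest treated library, and without it the lefamulin value was -1.78. With each library omitted in turn, the lefamulin value ranged from -1.78 to -1.04, with adjusted p at most 0.0456 in the same test. The tiamulin value ranged from -1.73 to -1.48, with adjusted p at most 0.0141. For tiamulin against lefamulin the log2(fold change) was -0.27 with a 95% confidence interval from -0.98 to 0.44, wide enough to include a difference as large as that of Abca1.

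Srebf1 (ENSMUSG00000020538, chr11:60089915-60113407, minus strand), the LXR target that drives fatty acid synthesis, was lower under both drugs, by much less than Abca1. Its counts were 3367, 2633 and 3185 in controls 1 to 3. They were 1912, 1963 and 1902 in lefamulin 1 to 3. They were 1806, 2563 and 1912 in tiamulin 1 to 3. The lefamulin libraries lay close together below all controls, whereas tiamulin 2, on the CPM scale, lay above control 2. The level was 175 ± 20.7 CPM in controls, 119 ± 2.88 with lefamulin and 128 ± 28.3 with tiamulin (mean ± SD, n = 3). In the same edgeR test Srebf1 changed on the log2 scale by -0.56 (SE 0.13, adjusted p = 0.0114) for lefamulin and -0.46 (SE 0.13, adjusted p = 0.0249) for tiamulin.

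The lefamulin call for Srebf1 held in each alternative run, and the tiamulin call did not. Without tiamulin 2 the tiamulin value was -0.66 (adjusted p = 2.70e-06), and with the GC and length offsets -0.53 (adjusted p = 1.25e-08). The tiamulin call was lost without control 1 (-0.38, adjusted p = 0.0831), control 3 (-0.45, 0.0711), tiamulin 1 (-0.36, 0.0853) or tiamulin 3 (-0.38, 0.0890), and when tiamulin and control were fitted alone (adjusted p = 0.0630) or limma was run on log2(FPKM + 1) or log2(FPKM + 0.1) (adjusted p = 0.0567 and 0.0558). Between the drugs Srebf1 gave 0.10 (95% confidence interval -0.18 to 0.37, adjusted p = 0.695), a value that turned to -0.10 without tiamulin 2. Counts per gene do not separate the LXR-driven transcript SREBP1c from SREBP1a, so which of them fell cannot be told apart.

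Srebf1 shares 109 bases of its span with the 3′ neighbor Rai1 on the opposite strand, and whether counting used the strand is not given in the sources used here. Rai1, which encodes a chromatin-associated regulator, had 3614, 2872 and 3391 counts in controls 1 to 3. It had 2103, 2251 and 2302 in lefamulin 1 to 3. It had 2226, 2943 and 2269 in tiamulin 1 to 3. As for Srebf1, all lefamulin libraries were below all controls and tiamulin 2 was the highest treated library, while the order among the lefamulin libraries was not the same. Rai1 changed by -0.46 on the log2 scale (adjusted p = 0.0141, edgeR's quasi-likelihood test) under lefamulin and by -0.32 (adjusted p = 0.0623) under tiamulin. Both genes are rich in GC, Srebf1 at 58.4% and Rai1 at 60.9%, above 93.0% and 97.8% of the genes tested. With GC and length offsets Rai1 passed under lefamulin (-0.33, adjusted p = 9.22e-07) and also under tiamulin (-0.38, adjusted p = 5.41e-08), as it did without tiamulin 2 (-0.46, adjusted p = 7.73e-06, and -0.49, adjusted p = 1.70e-05). Without control 1 neither value passed the threshold (-0.38, adjusted p = 0.0651, and -0.24, adjusted p = 0.211). The part of shared reads in the Srebf1 values was not tested.

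**Figure D2:**
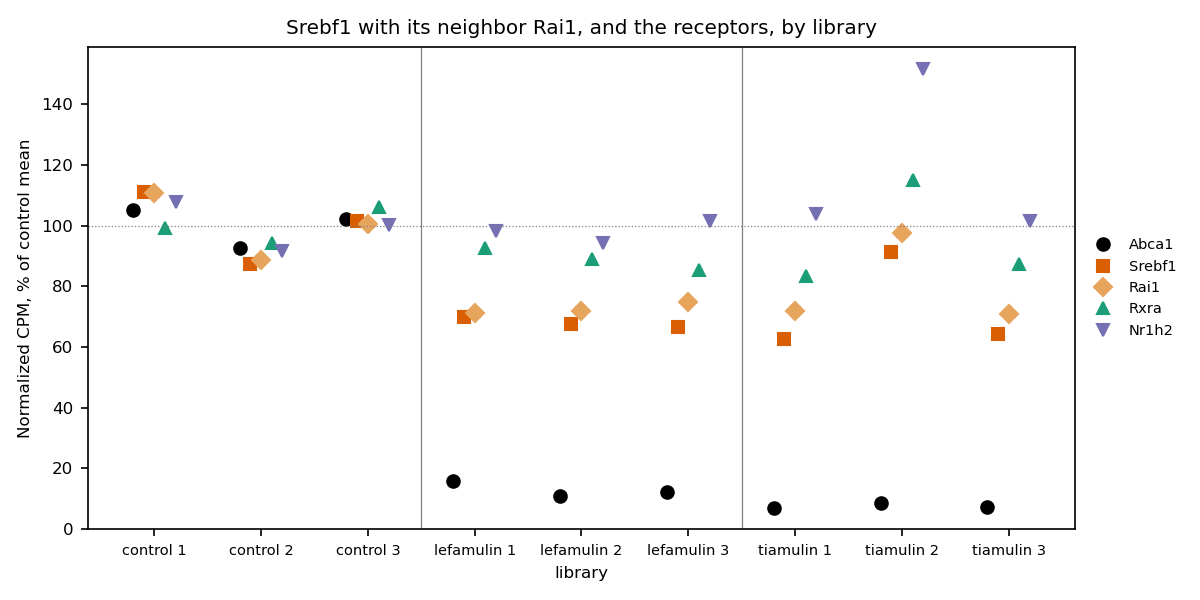
Normalized CPM of 5 genes in each library as a percentage of the control mean, with the 9 libraries on the x axis and 1 point per gene and library. Abca1 lies between 6.81% and 15.8% in the treated libraries, while in tiamulin 2 Srebf1 is at 91.4%, Rai1 at 97.6%, Rxra at 115% and Nr1h2 at 152%.

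None of the 3 receptor genes passed the edgeR test under either drug, although Nr1h2 and Rxra did in some alternatives. Nr1h2, which encodes LXRβ, was the more abundant LXR per length, at 17.5 FPKM (fragments per kilobase of gene length, scaled to library size) in controls against 1.75 FPKM for Nr1h3, which encodes LXRα. Counts of Nr1h2 were 1103, 930 and 1060 in controls 1 to 3. They were 906, 922 and 979 in lefamulin 1 to 3. They were 1007, 1432 and 1018 in tiamulin 1 to 3. The groups overlapped, and tiamulin 2 was the highest of the 9 libraries. The log2(fold change) of Nr1h2 was -0.03 under lefamulin (95% confidence interval -0.30 to 0.24, adjusted p = 0.912, edgeR's quasi-likelihood test). Under tiamulin it was 0.25 (-0.02 to 0.52, adjusted p = 0.205), and 0.04 without tiamulin 2 (adjusted p = 0.757). With GC and length offsets Nr1h2 was higher under tiamulin, at 0.20 (adjusted p = 0.0188), and so it was with no filter on low counts, at 0.26 (adjusted p = 0.0229). Nr1h2 has a GC content above that of 97.2% of the genes tested.

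Nr1h3 had 76, 71 and 85 counts in controls 1 to 3. It had 71 in each of lefamulin 1 to 3. It had 61, 49 and 75 in tiamulin 1 to 3. The values overlapped between groups, with tiamulin 2 the lowest. Nr1h3 had a log2(fold change) of -0.01 under lefamulin (95% confidence interval -0.38 to 0.36, adjusted p = 0.973, edgeR's quasi-likelihood test). Under tiamulin it was -0.24 (-0.62 to 0.13, adjusted p = 0.387), -0.12 without tiamulin 2 (adjusted p = 0.721) and -0.26 with GC and length offsets (adjusted p = 0.350). Both intervals exclude a change of the size seen for Abca1, and a fall within them was not detectable at these counts.

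Rxra, the shared partner of both LXRs, had 800, 754 and 885 counts in controls 1 to 3. It had 675, 686 and 648 in lefamulin 1 to 3. It had 637, 855 and 689 in tiamulin 1 to 3. On the CPM scale all lefamulin libraries lay just below all controls, and tiamulin 1 and tiamulin 3 did too, but tiamulin 2 was the highest of the 9. The log2(fold change) was -0.17 under lefamulin (95% confidence interval -0.40 to 0.06, adjusted p = 0.337, edgeR's quasi-likelihood test). Under tiamulin it was -0.07 (-0.30 to 0.15, adjusted p = 0.702), and without tiamulin 2 it was -0.23 (adjusted p = 0.0281). With GC and length offsets, which keep all 9 libraries, the tiamulin value was -0.14 (adjusted p = 0.147).

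Rxrb, which encodes RXRβ, had 1030, 863 and 1068 counts in controls 1 to 3. It had 672, 709 and 671 in lefamulin 1 to 3. It had 876, 1036 and 876 in tiamulin 1 to 3. Rxrb was thus lower with lefamulin than in every control, while on the CPM scale tiamulin 2 (64.7 CPM) was above the 3 controls (59.5, 50.2 and 59.6 CPM) and the other tiamulin libraries lay among them. This gave a log2(fold change) of -0.42 under lefamulin (adjusted p = 0.00965, edgeR's quasi-likelihood test) and 0.00 for tiamulin (adjusted p = 0.994). The lefamulin call was lost without control 3 or lefamulin 3. The difference between the drugs was 0.42 (adjusted p = 0.0227), a call lost in 7 of 19 alternatives, namely with the 2 groups alone, with the replicate block, in both limma runs and without any 1 of the lefamulin libraries. Rxrg, which encodes RXRγ, had 0 counts in all 9 libraries.

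Lpcat3, an acyltransferase that builds polyunsaturated phosphatidylcholine, was among the most abundant members per length, at 26.3 FPKM in controls. Its counts were 1554, 1428 and 1543 in controls 1 to 3. They were 1494, 1482 and 1426 in lefamulin 1 to 3. They were 1266, 1285 and 1427 in tiamulin 1 to 3. Each drug group overlapped with the controls, and on the CPM scale all tiamulin libraries were below all lefamulin libraries. The log2(fold change) of Lpcat3 was 0.07 under lefamulin (95% confidence interval -0.06 to 0.21, adjusted p = 0.514, edgeR's quasi-likelihood test) and -0.10 for tiamulin (-0.24 to 0.03, adjusted p = 0.310). Tiamulin against lefamulin gave -0.17 (-0.31 to -0.04, adjusted p = 0.134), and -0.19 (adjusted p = 0.0157) with GC and length offsets. Both intervals against control exclude a change of the size seen for Abcg1. Lpcat3 shares 334 bases of its span with Emg1 on the opposite strand, whose log2(fold change) was -0.13 and -0.17 (adjusted p = 0.229 and 0.0860). With GC and length offsets Emg1 passed under both drugs, at -0.15 (adjusted p = 0.0364) and -0.17 (adjusted p = 0.0119), and the part of shared reads in the Lpcat3 values was not tested.

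Mylip, the ubiquitin ligase IDOL, was too scarce to be measured well. It had 28, 26 and 29 counts in controls 1 to 3. It had 28, 33 and 25 in lefamulin 1 to 3. It had 12, 26 and 32 in tiamulin 1 to 3. The groups overlapped, and tiamulin 1 was the lowest library. The log2(fold change) was 0.16 under lefamulin (95% confidence interval -0.52 to 0.84, adjusted p = 0.793, edgeR's quasi-likelihood test) and -0.16 for tiamulin (-0.86 to 0.53, adjusted p = 0.786), turning to 0.15 without tiamulin 1. Smpdl3a, a secreted phosphodiesterase gene known as an LXR target in macrophages, had 0 counts in every library and was not tested. A count of 0 allows up to 3 counts per library, or 0.167 to 0.193 CPM, a limit that covers counting error only.

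In controls the order of the levels per length was Srebf1 at 30.9 FPKM, Lpcat3 at 26.3, Nr1h2 at 17.5, Abca1 at 8.67, Rxra at 7.34, Nr1h3 at 1.75, Abcg1 at 0.645 and Mylip at 0.487. Srebf1 (27.1 to 34.3 FPKM in controls) and Lpcat3 (25.3 to 27.3) overlapped, whereas every other pair of neighbors in this order had control values that did not overlap. With tiamulin Abca1 stood at 0.650 ± 0.0769 FPKM (mean ± SD, n = 3), between Nr1h3 at 1.47 ± 0.263 and Mylip at 0.435 ± 0.187 FPKM.

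Read together, 3 of the 8 genes tested were lower under lefamulin at an adjusted p below 0.05, namely Abca1, Abcg1 and Srebf1, and the same 3 were lower under tiamulin. None was higher. Of all 14510 genes, 6.00% were lower and 7.09% higher under lefamulin, and 7.34% were lower and 9.08% higher under tiamulin. With an absolute log2(fold change) above 1 as well, the definition of a DEG, Abca1 and Abcg1 remained under each drug, where 0.531% of all genes were lowered DEGs under lefamulin and 0.731% under tiamulin. The median log2(fold change) of the 8 genes was -0.10 under lefamulin and -0.20 under tiamulin, beside medians near 0 over all genes tested. The 2 comparisons share the control libraries, so the second is not independent of the first.

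**Figure D3:**
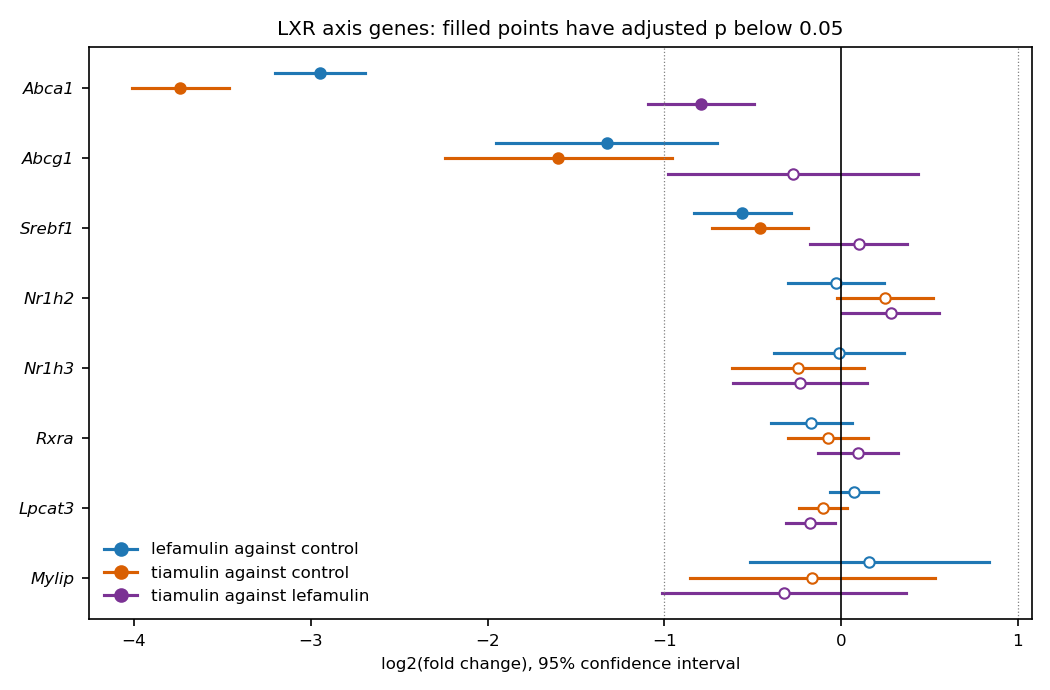
Log2(fold change) on the x axis for the 8 members tested, with 95% confidence intervals as lines, for each drug against control and for tiamulin against lefamulin. Filled points have an adjusted p below 0.05, and the dotted lines mark a log2(fold change) of -1 and 1. Against control the Abca1 intervals lie apart from those of all other genes, and between the drugs the Abca1 interval lies below 0 and overlaps those of Abcg1, Mylip and Nr1h3. The Abcg1 and Srebf1 intervals against control lie below 0, and the receptor intervals against control span 0.

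A longer list of 21 other LXR targets was described in the same fit, 15 of them with enough counts to be tested. Under lefamulin 2 were lower and 4 higher, and under tiamulin 3 were lower and 4 higher, beside 6.00% lower and 7.09% higher of all genes under lefamulin and 7.34% and 9.08% under tiamulin. Their median log2(fold change) was 0.19 under lefamulin and 0.24 under tiamulin. The 6 that were not tested had at most 16 counts in any library, and among them were the sterol transporters Abcg5 and Abcg8 and the bile acid enzyme Cyp7a1. Apoc4, which encodes an apolipoprotein of the Apoe cluster, had the largest fall, from 377, 314 and 375 counts in controls to 200, 210 and 256 with lefamulin and 166, 173 and 201 with tiamulin. All 6 treated libraries were below all controls. Its log2(fold change) was -0.57 (adjusted p = 0.00496, edgeR's quasi-likelihood test) and -0.90 (adjusted p = 0.000132). Its neighbor Apoe, the main apolipoprotein of remnant particles, was -0.21 (adjusted p = 0.0958) under lefamulin and fell by 0.42 on the log2 scale under tiamulin (adjusted p = 0.00182). Scd2, a fatty acid desaturase, was lower by both (-0.24 and -0.29, adjusted p = 0.00367 and 0.000544).

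The targets that rose under both drugs were Npc2, Scd1 and Lpl. Npc2, the lysosomal sterol carrier, was higher under lefamulin (0.41, adjusted p = 0.00140, edgeR) and under tiamulin (0.53, adjusted p = 0.000135). Npc1, the membrane protein that receives sterol from Npc2, had 2374, 2240 and 2325 counts in controls, 2224, 2383 and 2322 with lefamulin and 3069, 3232 and 3118 with tiamulin. The 3 tiamulin libraries stood above the other 6. Npc1 was higher with tiamulin than with lefamulin (0.42, adjusted p = 0.00104). Scd1, the main hepatic desaturase, was higher under both (0.54 and 0.33) and lower with tiamulin than with lefamulin (-0.21, adjusted p = 0.0240). Mertk, a receptor for apoptotic cells, rose under lefamulin (0.79, adjusted p = 0.0171) and was 0.47 under tiamulin (adjusted p = 0.138), and its lefamulin call was lost in 5 of 19 alternatives, among them both limma runs. Lpl, the lipoprotein lipase, rose under both (0.31 and 0.24, adjusted p = 0.0109 and 0.0326), the tiamulin call being lost in 8 of 19 alternatives and the lefamulin call without lefamulin 3. Lpl and Scd2 were named after their values had been seen, to complete the counts. Fasn, which carries the Abca1 element letter for letter, was 0.19 (adjusted p = 0.316) under lefamulin and 0.27 (adjusted p = 0.132) under tiamulin. With GC and length offsets, 3 targets were lower and 6 higher under lefamulin, and 4 lower and 6 higher under tiamulin, with Fasn among the genes that passed. More of all genes passed with these offsets too, 11.7% lower and 12.0% higher under lefamulin and 13.3% and 13.5% under tiamulin. The Scd1 call between the drugs was lost without control 3, without any 1 of the lefamulin libraries or without tiamulin 1, each of which left only Npc1, whereas without tiamulin 2 there were 4 calls, where 3.86% of all genes were lower and 4.93% higher.

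**Figure D4:**
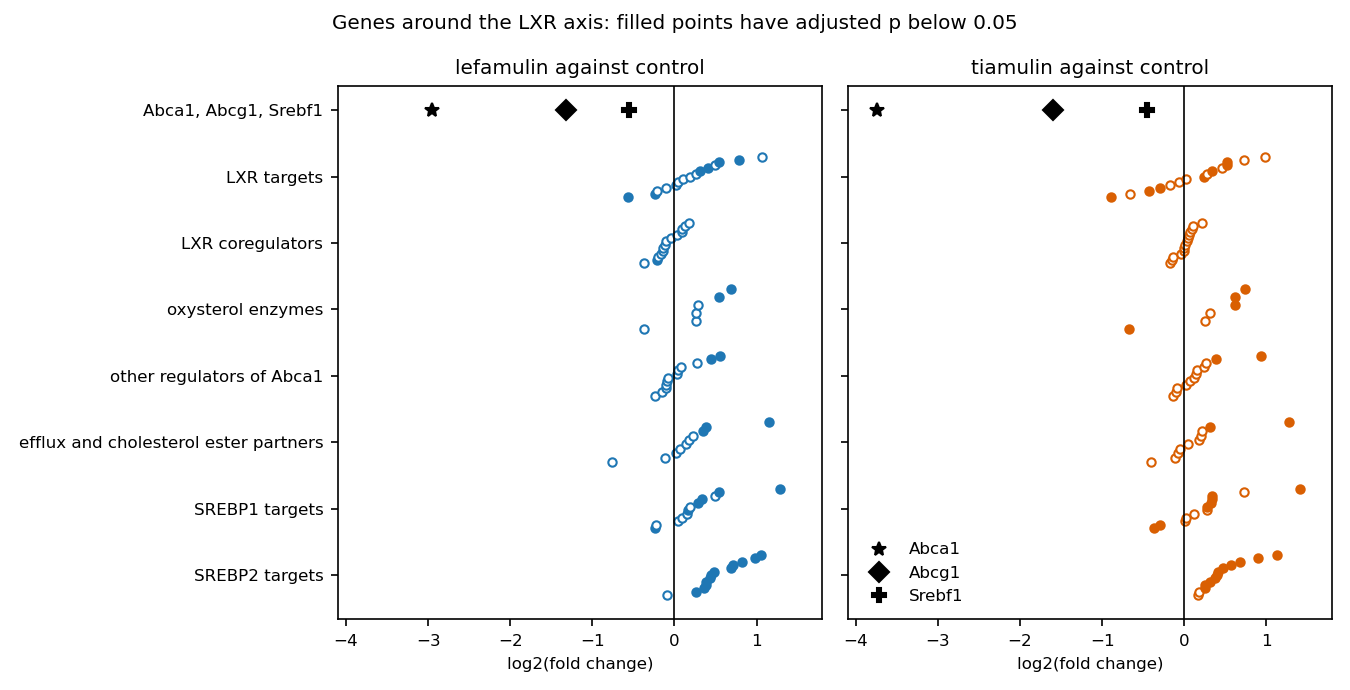
Log2(fold change) on the x axis of the genes tested in 7 lists around the LXR axis, 1 point per gene, with Abca1, Abcg1 and Srebf1 in the top row for scale. The left panel shows lefamulin against control and the right panel tiamulin against control, and filled points have an adjusted p below 0.05. LXR targets lie on both sides of 0, coregulators close to 0, and 12 of 13 SREBP2 targets under lefamulin and 11 under tiamulin are filled to the right of 0.

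Of the corepressors and coactivators that nuclear receptors exchange, 14 were tested. Among them Crebbp, which encodes the acetyltransferase CBP, was lower under lefamulin (-0.21, adjusted p = 0.0370, edgeR's quasi-likelihood test) and none passed under tiamulin, where 6.00% of all genes were lower and 7.09% higher under lefamulin and 7.34% and 9.08% under tiamulin. The Crebbp call was lost in 11 of 19 alternatives, including every omission of a control or lefamulin library, the replicate block and both limma runs. Without tiamulin 2 there were 3 coregulators lower and 2 higher under lefamulin and 2 lower under tiamulin, and with GC and length offsets 2 lower and 2 higher and 3 lower. Without tiamulin 2 the shares of all genes were 12.7% lower and 12.2% higher under lefamulin and 11.3% and 11.7% under tiamulin, also larger than with all libraries, and those with the offsets are given above. Crebbp was higher with tiamulin than with lefamulin (0.25, adjusted p = 0.0338), a call lost in 12 of 19 alternatives, the GC and length offsets among them. The median log2(fold change) of the 14 was -0.11 under lefamulin and 0.02 under tiamulin.

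Enzymes that make or remove oxysterols and related sterols, the ligands of LXR and their relatives, were listed next. Of 6 tested, 2 were higher under lefamulin, where 7.09% of all genes were, and under tiamulin 3 were higher and 1 lower, where 9.08% and 7.34% of all genes were. Across the alternatives the number higher was 1 to 4 under lefamulin and 3 or 4 under tiamulin. The share of all genes higher in these runs was 3.35% to 12.4% under lefamulin and 4.38% to 13.5% under tiamulin. Cyp27a1, which makes 27-hydroxycholesterol, had 364, 340 and 435 counts in controls, 393, 473 and 425 with lefamulin and 512, 522 and 615 with tiamulin. It was 0.29 under lefamulin (adjusted p = 0.0699, edgeR's quasi-likelihood test) and rose under tiamulin (0.62, adjusted p = 0.000627). Cyp7b1, which breaks oxysterols down, was lower under tiamulin (-0.67, adjusted p = 0.0228) and -0.38 under lefamulin (adjusted p = 0.200). The Cyp7b1 call was lost with the replicate block and without control 2, control 3 or tiamulin 3. Cyp39a1, another oxysterol hydroxylase, was higher under both (0.54 and 0.62, adjusted p = 0.0350 and 0.0133), but its lefamulin call was lost in 7 of 19 alternatives, among them DESeq2 and the replicate block. Dhcr7, which catalyzes the last step of cholesterol synthesis from 7-dehydrocholesterol, was also higher (0.69 and 0.74, adjusted p = 2.14e-05 and 8.45e-06). Ch25h, the cholesterol 25-hydroxylase, had 0 counts in all 9 libraries. Oxysterols themselves were not measured in these libraries.

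Other regulators of the Abca1 promoter were listed beside the LXRs. Of 12 tested, none was lower under either drug, and Pparg and Thrb were higher under both, where 7.09% and 9.08% of all genes were higher. Pparg, a fatty acid receptor, gave 0.44 (adjusted p = 0.0249, edgeR's quasi-likelihood test) under lefamulin and 0.39 (adjusted p = 0.0372) under tiamulin. Thrb, the thyroid hormone receptor β, gave 0.55 (adjusted p = 0.0266) and 0.94 (adjusted p = 0.000571). The Thrb call under tiamulin held in 19 of 19 alternatives. The Pparg call was lost in 4 alternatives under lefamulin and 10 under tiamulin, and the Thrb call under lefamulin in 7. Without control 3, lefamulin 1 or lefamulin 2 neither gene passed under lefamulin, and without tiamulin 2 1 gene of the list was lower under each drug, where 12.7% and 11.3% of all genes were. Usf1 and Sp1, whose core motifs CACGTG and GGGCGG are in the Abca1 window, were -0.11 and 0.08 under lefamulin and 0.07 and 0.03 under tiamulin, with the lowest adjusted p among these 4 values at 0.437.

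Of the genes around cholesterol efflux and storage, 10 were tested. None was lower, 3 were higher under lefamulin and 2 under tiamulin, where 7.09% and 9.08% of all genes were higher. Soat2, which esterifies cholesterol for storage, rose from 47, 45 and 30 counts in controls to 87, 88 and 76 with lefamulin and 98, 96 and 86 with tiamulin. All treated libraries were above all controls, with a log2(fold change) of 1.15 (adjusted p = 0.00166, edgeR's quasi-likelihood test) and 1.28 (adjusted p = 0.000505). Lipa, the lysosomal acid lipase, was higher under both (0.34 and 0.31), calls that were lost without control 3 or lefamulin 1 and without control 3, tiamulin 1 or tiamulin 3. Stard4, a cytosolic sterol carrier, was higher under lefamulin (0.38, adjusted p = 0.00378) and 0.18 under tiamulin (adjusted p = 0.126). Apoa1, the main acceptor for Abca1, had at most 6 counts in any library and was not tested.

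Lrp8 and Vldlr encode receptors that the Mylip protein marks for breakdown. Lrp8 rose under both drugs, by 0.36 and 0.25 on the log2 scale (adjusted p = 0.00540 and 0.0328, edgeR's quasi-likelihood test), the tiamulin call being lost in 9 of 19 alternatives. Vldlr was 0.25 under lefamulin (adjusted p = 0.0537) and rose by 0.57 under tiamulin (adjusted p = 0.000233). Their protein levels were not measured here.

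The targets of the SREBPs were set beside Srebf1, which encodes one of these factors. Of 12 SREBP1 targets tested, some of which (Scd1, Scd2, Fasn, Acaca and Pnpla3) are also in the LXR list, 1 was lower and 5 higher under lefamulin, and 2 were lower and 5 higher under tiamulin. Over all genes the shares were 6.00% lower and 7.09% higher under lefamulin and 7.34% and 9.08% under tiamulin. Across the alternatives the number higher was 3 to 7 under lefamulin and 5 to 8 under tiamulin, while the share of all genes higher was 3.35% to 12.4% and 4.38% to 13.5%. The highest numbers came with the GC and length offsets, where 12.0% and 13.5% of all genes were higher. With the replicate block as well, these shares were 10.9% and 12.6%. Acss2, which makes acetyl-CoA from acetate, had 144, 136 and 180 counts in controls, 336, 322 and 377 with lefamulin and 351, 384 and 418 with tiamulin, a log2(fold change) of 1.28 and 1.41. Acly and Fads2 also rose under both, whereas Gpam, the first enzyme of glycerolipid synthesis, was -0.22 under lefamulin (adjusted p = 0.0605, edgeR's quasi-likelihood test) and lower under tiamulin (-0.36, adjusted p = 0.00329). Of 13 SREBP2 targets, 12 were higher under lefamulin and 11 under tiamulin, with none lower, beside the same shares of all genes, while Srebf2 itself was -0.09 and 0.14 (adjusted p = 0.605 and 0.373). Among them Mvd, which decarboxylates mevalonate diphosphate, gave 1.05 and 1.13, and Insig1, the sterol-sensing retention factor, 0.72 and 0.47.

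The genes whose levels followed Abca1 most closely over the 9 libraries were not LXR axis members. By Pearson's r of log2 CPM over 9 libraries, a description dominated by the gap between controls and treated samples, the 5 nearest of 11803 protein-coding genes were Scube3 (0.993), Spp1 (0.990), Nr5a2 (0.990), Nrg1 (0.988) and C3 (0.986). Scube3, a secreted signaling protein, had 447, 461 and 466 counts in controls, 221, 191 and 197 with lefamulin and 162, 192 and 190 with tiamulin. Nr5a2, the nuclear receptor LRH-1, had 995, 923 and 1075 counts in controls, 616, 616 and 629 with lefamulin and 520, 546 and 592 with tiamulin. Since these genes were chosen for their likeness to Abca1 in these same libraries, the gap between their treated and control values was fixed by that choice, and their values are a description with no test. The log2(fold change) was -0.57 under lefamulin and -0.77 under tiamulin for Nr5a2, and -0.90 and -1.07 for C3, the central complement protein. Among the LXR axis members, Abcg1 ranked 272 with an r of 0.901 and Srebf1 ranked 693 with 0.812. The receptors had r values of 0.444 for Nr1h3, 0.408 for Rxra and -0.289 for Nr1h2.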

How the data were processed

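RNA-Seq libraries of Hepa1-6 cells, 3 per group, were grouped by the sample labels. The authors deposited raw read counts for each gene, as whole numbers, and FPKM values, which divide the counts by the deposited gene length and by the library total. Gene lengths in bases of exon were deposited with the counts. The submitters' processing notes list CASAVA 1.8, fastp, HISAT2 2.0.5, featureCounts 1.5.0-p3, DESeq2 1.20.0 and the build mm10. Strand setting and annotation release are not given in the sources used here. Of 52036 nuclear genes compared, 1435 (2.76%) had their GRCm38 position, so the build behind the counts is in doubt.

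The fit used edgeR 4.0.16 (R 4.3.3). After filterByExpr and TMM normalization, a robust quasi-likelihood model of all 9 libraries was fitted with the group as its single factor. Benjamini-Hochberg adjustment covered the 14510 genes tested, with a threshold of 0.05, and a DEG also had an absolute log2(fold change) above 1. Confidence intervals were at 95%. The procedure was tested on simulated counts with the same spread setting for every gene. These held no GC trend and no outlying library, so the test does not cover those features of the real libraries. With total counts between 15568887 and 18008105, counting error adds to the spread between libraries for genes with few counts.

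The members and gene lists were chosen with earlier results of these data known. Besides the members, genes were named by a rule, namely those past the threshold under at least 1 drug, at most 6 per list by the size of the mean log2(fold change), and the 5 genes most correlated with Abca1. Lists were described by counts and medians, with no test of the list, and some genes of the lists are not reported here.

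The alternatives were edgeR with DESeq2's size factors, the DESeq2 1.42.0 test, a fit of every gene with any count, a minimum of 10 counts per library, a fit of only the 2 groups compared, a block for the replicate number, limma 3.58.1 on log2(FPKM + 1) or log2(FPKM + 0.1) with FPKM above 1 in at least 3 libraries, offsets for GC content and length with and without the block, and the omission of each library in turn. Fold changes on the log2(FPKM + pseudocount) scale understate the change of low genes. GC content was known for 98.2% of the genes tested, from GENCODE M21. Promoter windows and their positions came from RefSeq on GRCm38.p6, matched by gene symbol for 7 of the 9 genes.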

Additional observations from a re-analysis of the deposited data

How the results depend on the processing

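Under the 10 alternatives that omit no library of the groups compared, Abca1 remained past the threshold under each drug, with a log2(fold change) from -2.95 to -2.19 under lefamulin and from -3.75 to -2.55 under tiamulin. With each library omitted in turn the values were -3.11 to -2.84 and -3.83 to -3.67. Tiamulin against lefamulin, Abca1 was -0.36 (adjusted p = 0.0676) with limma on log2(FPKM + 1). Under tiamulin, limma left, with either pseudocount (1 or 0.1), 1 member past the threshold in place of 3, where Abcg1 and Mylip were not tested because of the FPKM filter. Between the drugs, the number of members past the threshold was 2 with no filter on low counts (Abca1 and Nr1h2), 2 with GC and length offsets, with or without the replicate block (Abca1 and Lpcat3), and 0 with limma on log2(FPKM + 1). The number of LXR targets that differed between the drugs was 2, or 1 when the 2 groups were fitted alone, 3 with no filter, with the offsets and with the offsets and the block, and 1 to 4 when 1 library was left out. Over all genes the shares lower and higher between the drugs were 2.05% and 2.85%, 0.783% and 1.21% for 2 groups alone, 1.62% and 2.62% with no filter, 6.34% and 6.76% with the offsets and 5.38% and 5.73% with the block as well, and 0.526% to 3.86% and 0.828% to 4.93% without 1 library. For these changes the cause was not tested.

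Directions turned only for values that had not passed the threshold. Nr1h2 under lefamulin was 0.0397 with GC and length offsets, 0.0392 with the replicate block as well, and -0.0873 to 0.0275 without 1 library. Nr1h3 under lefamulin was 0.00316 with the offsets and the replicate block, and -0.0577 to 0.0410 without 1 library. Without 1 library, Rxra ranged from -0.23 to 0.0141 and Mylip from -0.43 to 0.15 under tiamulin, and between the drugs Abcg1 ranged from -0.56 to 0.19, Rxra from -0.0609 to 0.18 and Srebf1 from -0.0971 to 0.20. Between the drugs, Rxra was -0.0156 with the offsets and -0.0176 with the block as well, and Srebf1 was -0.0332 and -0.0338.

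The deviations of the libraries from their group means showed no pairing by replicate number. Since these deviations also carry the GC trend of each library, the samples cannot be called unpaired from this. Same-numbered libraries had correlations of their deviations between -0.510 and 0.0434, and the highest correlation, 0.512, was between control 1 and tiamulin 2. With the replicate block Abca1 was -2.95 under lefamulin, -3.73 under tiamulin and -0.78 between the drugs (adjusted p = 0.0228). The same 3 members passed under each drug, and Scd1 no longer differed between the drugs, which left 1 LXR target. Over all genes the block called 1304, 1811 and 263 genes in the 3 comparisons, against 1900, 2383 and 711 without it. With GC and length offsets these numbers were 3432, 3886 and 1901, and with the offsets and the block 3120, 3582 and 1612. With 2 groups alone they were 3510, 1685 and 280.

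With 3 libraries per group, Mylip, Nr1h3 and Abcg1 had at most 93 counts in any library, which limits what can be said of them.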

Other observations

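Markers of other cell types were counted beside the LXR axis genes, since Abca1 and Abcg1 are also expressed outside hepatocytes. The summed level of 5 leukocyte markers was 0 to 0.520 CPM in controls, 0.895 to 0.919 with lefamulin and 0.548 to 0.942 with tiamulin, with Cd3e at 0 counts in all 9 libraries. The summed level of 5 endothelial markers was 2.33 to 2.85 CPM in controls, 6.45 to 7.23 with lefamulin and 4.89 to 6.81 with tiamulin. Among these, Pecam1 had 15 to 25 counts in controls and 37 to 67 in treated libraries. Of the 2 endothelial markers tested, Pecam1 and Vwf were both higher under lefamulin, and Pecam1 alone passed under tiamulin. Over all genes tested, 7.09% were higher under lefamulin and 9.08% under tiamulin. For 7 fibroblast markers the summed level was 1508 to 1594 CPM in controls, 1148 to 1201 with lefamulin and 1063 to 1156 with tiamulin, nearly all from Dcn, while Col1a2, Col3a1 and Lum had at most 2 counts in any library. The 10 hepatocyte or hepatoma markers summed to 2530 to 2741 CPM in controls, 2453 to 2579 with lefamulin and 1964 to 2105 with tiamulin. The part of these differences in the Abca1 and Abcg1 values was not tested. Within the macrophage list, Mpeg1 had 67 to 75 counts in controls and 22 to 54 in treated libraries, opposite in direction to Cd14 and Cd68.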
